A study of Drosophila melanogaster with 2 samples.

Results

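The regions described here are 1034 weaker distal noncoding peaks of the transcription factor tx that were found in both biological replicates of a chromatin immunoprecipitation with sequencing (ChIP-seq) experiment in Drosophila melanogaster. They were drawn from the 30000 peaks of the authors' relaxed list for the pooled replicates on the dm6 genome, ranked by the authors' signal value per peak. A member ranked below the authors' thresholded set, which holds the strongest peaks of the list, and at 15000 or better. Its summit lay over 1000 bp from every protein-coding transcription start site (TSS) and outside annotated exons, and each replicate's list had a summit within 100 bp of it among its 15000 strongest peaks. Ranks, signals, position and replicate match therefore chose the members, and values of these are given as description. Sequence, GC content, intron or intergenic position, arm and neighbouring genes were not used by the rule. The experiment had 2 biological replicates of 1 group: whole embryos, male and female pooled, 0 to 24 h old, from a transgenic fly line in which tx carried green fluorescent protein (GFP) at its C terminus, immunoprecipitated with an antibody to GFP after sonication. Which cells of the embryo gave a peak cannot be read from chromatin of whole animals. One control sample served for both replicates, as the description deposited with the files states, and no immunoprecipitate from animals without the tagged protein was analysed here.

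The gene tx, also called taxi or delilah, encodes a basic helix-loop-helix (bHLH) protein known from embryonic tendon cells, the epidermal cells to which muscles attach, and from the wing. Proteins of the bHLH family bind DNA as dimers, most often at the E-box, the sequence CANNTG. Distal noncoding sites of transcription factors lie in introns and between genes, and many are enhancers, stretches of DNA that raise transcription from a promoter elsewhere. A peak list does not tell how many cells used a site.

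The sequences below are examples of member summits that hold either of 2 words. Either word stood in 21.0% of member summits and 9.67% of their flanks, so most members lack both. A scan of all 6-mers, each counted together with its reverse complement and described with its test further on, called the words AGTGTA and AGTGCA more frequent at member summits than 500 bp away. The windows reach 50 bp to either side of the pooled summit, on the plus strand of dm6 in the RefSeq copy, and belong to members of good pooled rank that hold a word, chosen after their values were seen. Capitals mark AGTGTA or AGTGCA on either strand, so TACACT and TGCACT are the same words read from the other strand. The windows come from intergenic DNA 1739 bp upstream of kon, an intron of Nt5b, intergenic DNA 8550 bp from a TSS of Act5C, intergenic DNA 6822 bp from Doc1, an intron of Bx and an intron of Pvf3.
kon, chr2L:18505667-18505767: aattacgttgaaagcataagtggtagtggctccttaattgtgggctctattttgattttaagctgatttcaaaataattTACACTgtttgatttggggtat
Nt5b, chrX:18407412-18407512: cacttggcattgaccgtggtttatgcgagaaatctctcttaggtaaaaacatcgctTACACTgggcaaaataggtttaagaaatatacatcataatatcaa
Act5C, chrX:5892261-5892361: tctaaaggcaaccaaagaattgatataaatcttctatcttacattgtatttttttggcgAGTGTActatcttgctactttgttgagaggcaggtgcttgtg
Doc1, chr3L:9034503-9034603: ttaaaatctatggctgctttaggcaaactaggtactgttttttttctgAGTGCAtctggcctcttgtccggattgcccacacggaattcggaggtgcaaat
Bx, chrX:18542011-18542111: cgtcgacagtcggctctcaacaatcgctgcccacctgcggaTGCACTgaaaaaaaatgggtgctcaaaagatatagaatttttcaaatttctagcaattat
Pvf3, chr2L:7155078-7155178: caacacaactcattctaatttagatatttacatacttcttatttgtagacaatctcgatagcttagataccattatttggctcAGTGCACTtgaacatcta

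Every one of these 6 windows holds 1 or more copies of a scan word, and that of Pvf3 holds AGTGCA on both strands in the overlapping form AGTGCACT. The matches in the windows of Doc1, Nt5b, Act5C and Bx start within 10 bp of the summit, and that of kon starts 29 bp from it. A wider window, also chosen after its values were seen and for its high number of matches, is an example of several copies near a summit. In windows of that width 18.3% of members held at least 2 matches and 4.26% at least 3. The intergenic member 9401 bp from the TSS of PVRAP held 4 matches in 299 bp, and its pooled rank was 3526, with rank 3870 in replicate 1 and 2217 in replicate 2.
PVRAP, chr3L:5987658-5987956: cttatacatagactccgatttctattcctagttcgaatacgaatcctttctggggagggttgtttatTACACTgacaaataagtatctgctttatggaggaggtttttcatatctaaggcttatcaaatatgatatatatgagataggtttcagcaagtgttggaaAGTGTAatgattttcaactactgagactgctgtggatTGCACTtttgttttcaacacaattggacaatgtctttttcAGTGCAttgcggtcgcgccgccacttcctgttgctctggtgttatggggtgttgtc

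Further windows are shown with E-boxes in capitals, since the E-box is the site the family is known for. RpS15Aa names the member of best pooled rank, which lay between genes 2566 bp from a TSS of this ribosomal protein gene. The loco window lay in an intron of loco, which encodes a regulator of G-protein signalling. The 2 tx windows lay in an intron of tx itself.
RpS15Aa, chrX:13335022-13335122: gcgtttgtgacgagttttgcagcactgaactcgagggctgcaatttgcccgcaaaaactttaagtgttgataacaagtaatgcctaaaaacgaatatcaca
loco, chr3R:22628008-22628108: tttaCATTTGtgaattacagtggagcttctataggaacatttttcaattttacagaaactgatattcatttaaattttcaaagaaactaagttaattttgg
tx, chr3R:26442753-26442853: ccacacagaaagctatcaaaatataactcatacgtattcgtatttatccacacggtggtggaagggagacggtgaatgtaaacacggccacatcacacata
tx, chr3R:26444205-26444305: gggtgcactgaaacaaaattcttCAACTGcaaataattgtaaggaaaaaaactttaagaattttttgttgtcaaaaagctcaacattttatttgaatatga

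Of these 4 windows, that of loco holds the E-box CAAATG, read from the other strand, and the later tx window holds CAACTG, as well as the scan word AGTGCA read from the other strand, left in lower case. The RpS15Aa window and the earlier tx window hold no E-box.

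The members were spread through the upper part of the rank range. Their median pooled rank was 5226, with the middle 50% between 4083 and 6753, and their signal had a median of 40.2 and ran between 20.1 and 58.4. The median rank was 6775 in replicate 1, with a range of 1715 to 14997, and 5630 in replicate 2, with a range of 547 to 14996. The matched summits lay at a median distance of 14 bp in replicate 1 and 30 bp in replicate 2. The deposited −log10 q-value reached its cap of 4.02 in 48.9% of members, against 100% of the 907 strong distal peaks, which are the peaks of the thresholded set's ranks that passed the same position and replicate rule.

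Replicate support thinned out with rank, and replicate 2 set the limit. In the members' whole rank range, 19.5% of 11898 peaks had a summit in both replicates, and among the 5047 distal noncoding ones the share was 20.5%. Of distal noncoding peaks of that range up to rank 5000, 471 of 763 were matched in both replicates (61.7%, 95% Wilson interval 58.2 to 65.1%), and of promoter peaks of those ranks 578 of 1088 were (53.1%, 50.2 to 56.1%). The distal share was 37.1% between ranks 5000 and 7500, 13.6% between 7500 and 10000, 2.74% between 10000 and 12500 and 0.710% from there to 15000. Of the 4013 that failed, 2347 lacked a match in replicate 2 only, 774 in replicate 1 only and 892 in both. Within the members the 2 replicates ranked peaks in largely different orders: Spearman's rho between the replicate ranks was 0.165 over 1034 members, against 0.618 over 907 strong distal peaks. This is a description of peaks that share 2 libraries and a rank window chosen on the pooled signal, and it carries no p-value. A narrow window can itself lower rho. Pooled signals ran from 20.1 to 58.4 in members and from 58.5 to 1421 in strong distal peaks, so the 2 values of rho are not directly comparable.

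**Figure D1:**
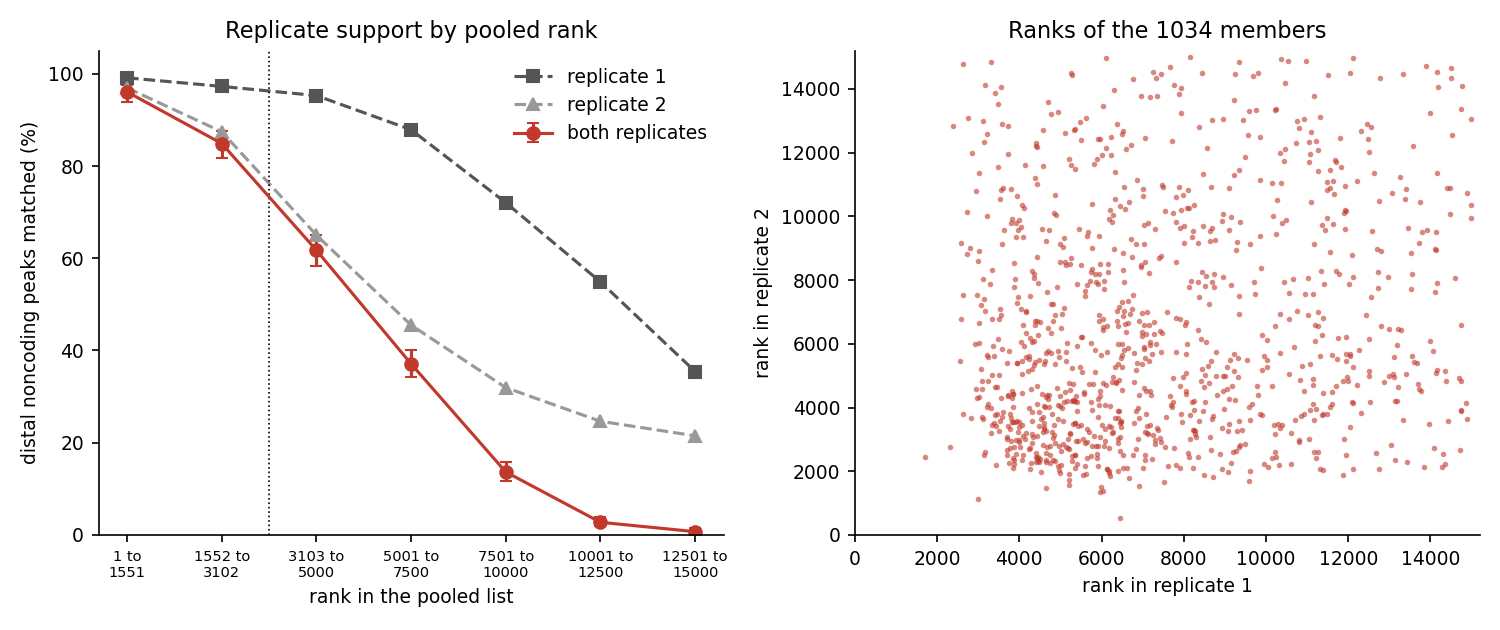
Left: share of distal noncoding peaks (%) with a summit within 100 bp among the 15000 strongest of replicate 1, replicate 2 or both, by rank in the pooled list, with 95% Wilson intervals for both; the dotted line marks the upper rank limit of the members. Right: rank in replicate 1 (x axis) against rank in replicate 2 (y axis) for each of the 1034 members; the points spread over most of the square and are densest at the better ranks of both.

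The 10 members of best pooled rank had signals between 57.8 and 58.4 and lay on 5 arms. Argk2, an arginine kinase gene, had a member 2009 bp from its TSS, of rank 3376 in replicate 1 and 3525 in replicate 2. The esn member lay in an intron, and its ranks were 3123 and 3640. An intronic member shared by CG13004 and CG46306 had ranks 3518 and 3273. The member beside kon, which encodes a transmembrane protein that muscles need to reach their tendon cells, had rank 4747 in replicate 1 and 2508 in replicate 2. CG6414 was the nearest gene of a member 39719 bp from any protein-coding TSS, with ranks 3081 and 3703. The fz2 member, in an intron of a Wnt receptor gene, had ranks 4078 and 2503, and that of Tet, a gene of the family of methylcytosine dioxygenases, had ranks 3082 and 4592. The member beside RpS15Aa had ranks 3063 and 5203, that in loco 3802 and 3656, and that beside CG15283 3031 and 8923. The replicate ranks lay closest for loco and farthest apart for CG15283, which was better placed in replicate 1.

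At the edges of the rule the values run on smoothly. The weakest member in the pooled list, in an intron of nkd, a Wnt pathway inhibitor, had pooled rank 14866 and signal 20.1, with ranks 9142 and 7861 in the replicates. The next replicated distal peak outside the limit had pooled rank 15900 and signal 19.3. At the upper limit the RpS15Aa member of rank 3105 and signal 58.4 stood next to a peak of rank 3098 and signal 58.5. The member nearest a protein-coding TSS was 1001 bp away, beside CG2772, and the nearest peak outside the limit was 991 bp away. Members at the replicate limits ranked 14997 in replicate 1 and 14996 in replicate 2, against 15017 and 15019 for the peaks just outside.

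Some members stood directly beside a stronger peak. A summit of the thresholded set's ranks, called a strong summit here, lay within 250 bp of 33 members (3.19%), no other member had its nearest strong summit within 500 bp, and the smallest distance, 199 bp, was also the smallest gap between any 2 summits of the pooled list. The members best placed in single replicates, named after their values were seen, were among them. The drn member ranked 1715 in replicate 1 with a stronger summit 199 bp away, and the Nuak member ranked 547 in replicate 2, where its matched summit was 98 bp off, with a stronger summit 200 bp away. For such members the replicate summit may belong to the neighbouring peak, and this was not tested. Without the 33 members, over 1001 members, AGTGTA was still called at summits (ratio 2.62 to flanks, exact stratified test, p = 1.4e-08 adjusted over all 6-mers).

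Member summits were poor in GC. The summit windows, 50 bp to either side, had 36.3% GC ± 8.46 (SD, n = 1034 members), against 41.9% in windows 500 bp to either side. GC was below the flank mean in 720 members, above it in 301 and equal in 13 (two-sided exact sign test over 1034 peaks, p = 3.22e-40). In 51 bp windows the GC was 35.7% at the summit, 44.1% at 250 bp on the left side and 40.1% at 1000 bp on that side. Non-overlapping windows as wide as the summit windows, over the 6 arms, averaged 42.2% GC. A flank centre lay in an exon for 13.2% of members, and in the other 898 members summits had 36.0% GC and flanks 41.7%.

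The mean GC of member summits lay between those of strong and unreplicated distal peaks. Strong distal summits had 34.1% GC against 41.4% in their flanks, unreplicated distal summits of the members' rank range had 40.2% against 40.8%, and weaker replicated promoter peaks, within 1000 bp of a TSS, had 41.6% against 44.3%. A flank centre lay in an exon for 77.0% of the promoter peaks, and in the 267 without one the direction was the other, with 41.1% GC at summits and 40.01% in flanks. GC lay below the flanks in 69.6% of members and 51.4% of the 4013 unreplicated peaks (odds ratio 2.16, two-sided Fisher's exact test, p = 8.8e-25 adjusted over 35 features). The unreplicated peaks were weaker, with a median pooled rank of 10327. The corresponding share of strong distal peaks was 76.6% (odds ratio 0.700, exact test, adjusted p = 0.0105), a call lost with summits matched within 50 bp (adjusted p = 0.30) or a TSS distance of 2000 bp (adjusted p = 0.17).

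**Figure D2:**
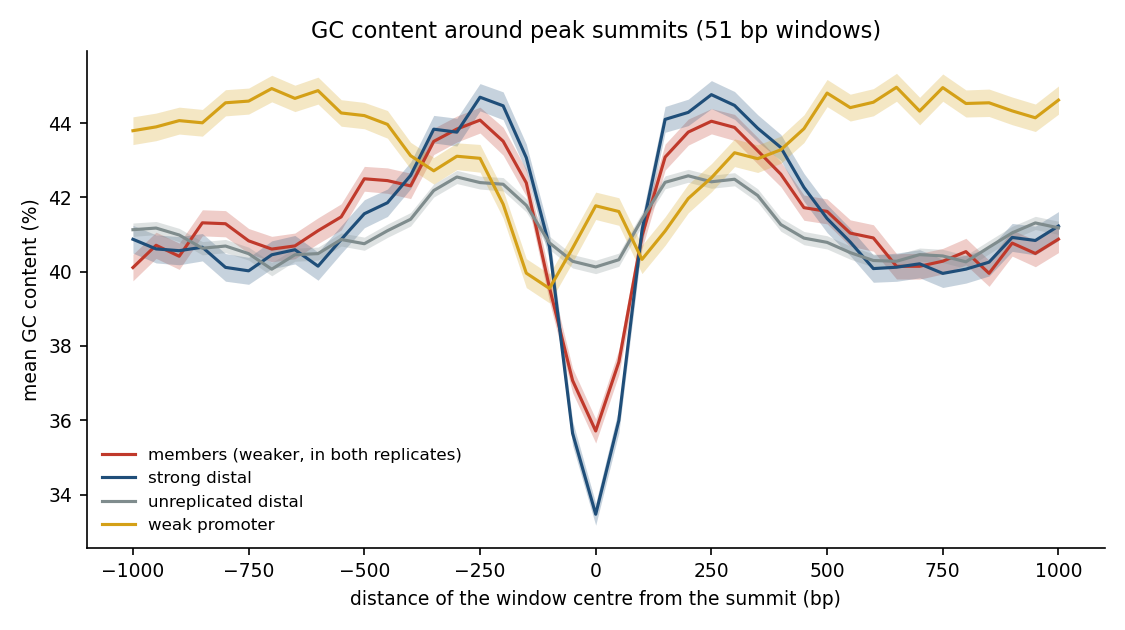
Mean GC content (%) of 51 bp windows against distance of the window centre from the summit (bp), for the 1034 members, 907 strong distal, 4013 unreplicated distal and 1161 weak promoter peaks; shaded bands are 1 standard error over peaks. The member curve falls to 35.7% at the summit between shoulders of about 44%, strong distal peaks fall further, to 33.5%, and unreplicated peaks fall to 40.1%.

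The E-box, the site known for the bHLH family, was not more frequent at member summits than in their flanks. All motifs were searched on both strands. Any E-box was present in 404 summit windows (39.1%, 95% Wilson interval 36.1 to 42.1%) and in 43.8% of flank windows, and the ratio of 0.893 did not pass the test (two-sided exact stratified test of 1 summit and 2 flank windows per peak, adjusted over 11 E-box tests, p = 0.0736). The share in genome windows of the same width was 39.3%, and in all 30000 pooled summits it was 42.1%. Of the members 319 held 1 E-box, 72 held 2 and 13 held at least 3. Of the 11 tests 0% were called after adjustment and 3 had an unadjusted p below 0.05: any E-box, CAATTG and CAGCTG, all with the lower share at the summit. CAGCTG stood in 2.71% of summits and 4.79% of flanks, and CAAATG, the most frequent class, in 10.7% and 12.4%. The class CAGGTG stood in 2.80% of both. In the 292 members whose summit GC was within 5 percentage points of their flanks, the ratio for any E-box was 1.04 (exact test, adjusted p = 0.81), on the other side of 1. In windows reaching 100 bp to either side the lower E-box share at summits was called (ratio 0.912, exact test, adjusted p = 0.0096).

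The E-box share was nearly level across rank within the members, at 39.9% up to rank 4000, 36.6% between 4000 and 5000, 38.8% between 5000 and 7000 and 41.3% beyond. It was 39.1% in members, against 38.3% in strong distal, 40.9% in unreplicated distal and 38.8% in weak promoter peaks, and none of the 3 differences was called (exact test, adjusted p = 1, 0.69 and 1). The odds ratios were 1.03, 0.926 and 1.01, and each changed sides of 1 under some alternative settings, so the data give no direction.

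Of the 16 other motifs 0% were called after adjustment and 5 had an unadjusted p below 0.05. A run of 8 adenines, a homopolymer run, stood in 10.1% of summits and 7.25% of flanks (exact test, adjusted p = 0.0624). GAGAG, the site of the GAGA factor, stood in 10.2% and 13.8% (exact test, adjusted p = 0.0624), and the CA repeat CACACA in 8.61% and 11.6% (adjusted p = 0.0713). GGTCACAC, the core of the promoter site of M1BP, stood in 5 summits, or 0.484%, and in 0.0484% of flank windows. GGAATG, the site of Scalloped, the wing selector protein, stood in 3.97% and 5.66%. CAGGTA, the site of the early activator Zelda, stood in 2.22% and 1.45%, and the Mef2 site, bound by the muscle factor of that name, in 3.68% and 3.38%. The stripe site GCGTGGGCG, for the zinc finger factor that marks tendon cells, stood in 0 of 1034 summits, which allows a share of up to 0.290% (3 counts), and in 0.242% of flanks. The GATA site GATAAG stood in 5.32% of summits and 4.45% of flanks, the homeodomain core TAATTA in 6.29% and 6.43%, and TGGGAA, of the Notch effector Su(H), in 5.51% and 7.16%. The AP-1 site TGANTCA stood in 2.61% and 2.47%, the STAT site TTCNNNGAA in 2.42% and 2.71%, and the Exd site TGATTGAT in 0.870% and 0.580%. The grainy head site AACCGGTT stood in 0.0967% of both and the DREF site TATCGATA in 0.193% of both. In genome windows of the same width the shares were 5.45% for the adenine run, 11.4% for GAGAG, 8.07% for CACACA, 0.210% for the M1BP site, 4.79% for GGAATG, 2.30% for CAGGTA, 3.20% for the Mef2 site and 0.106% for the stripe site. The number of motifs called moved with the settings, between 0 and 4 of the 16.

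The scan of all 6-mers gave many calls. On the exact stratified test adjusted over all 6-mers, 214 words (10.3%) were more frequent at member summits and 215 (10.3%) were rarer. The words that were more frequent had a mean GC of 22.8% and the rarer ones 68.9%, the same direction as the GC difference between summits and flanks described above. AAATAT stood in 28.6% of summits and 16.2% of flanks (exact test, adjusted p = 1.5e-11), and GCAACA, among the rarer, in 4.74% and 10.2% (adjusted p = 1.9e-05). The count of calls was far lower among members whose summits and flanks had similar GC. Among the 292 members with summit GC within 5 points of the flanks (39.2% and 39.5% on average), 5 words were more frequent and 0 rarer, and AAATAT was no longer called (24.7% of summits and 20.5% of flanks, exact test, adjusted p = 0.83). That subset is also smaller, so composition and number of peaks cannot be told apart as sources of the lower count.

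Of the 5 words called in the GC-matched members 4 hold the letters AGTG on either strand, and ACTGTG is the exception, so the calls overlap. AGTGTA stood in 16.1% of their summits and 3.94% of their flanks (ratio 4.09, exact test, adjusted p = 7.7e-06). ACACTG, whose reverse complement is CAGTGT, stood in 11.99% and 2.91% (exact test, adjusted p = 0.000655), and CAGTGC in 10.3% and 3.25% (adjusted p = 0.0187). ACAGTG stood in 11.6% and 3.60% and ACTGTG in 10.3% and 3.08%. Over all 1034 members AGTGTA stood in 10.6% of summits and 3.92% of flanks (ratio 2.72, exact test, adjusted p = 1.6e-09), AGTGCA in 11.4% and 5.95% (ratio 1.92, adjusted p = 2.6e-05), and the palindrome GTGCAC in 5.51% and 1.98% (ratio 2.78, adjusted p = 3.5e-05). AGTGTA was called under all 8 alternatives run on it, with ratios of 2.23 to 4.09. AGTGCA and GTGCAC missed the threshold in the 292 GC-matched members (exact test, adjusted p = 0.093 and 0.056), where their ratios were 2.16 and 3.29.

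Either AGTGTA or AGTGCA stood in 217 member summit windows (21.0%, 95% Wilson interval 18.6 to 23.6%), against 9.67% of flanks, 9.52% of genome windows of the same width and 11.98% of all 30000 pooled summits. Both words together stood in 11 windows. These shares and all that follow on the 2 words are description, since the words were picked from the scan. The share was nearly level over 100 bp either side of the summit: it was 21.4% in windows centred 100 bp to the left of the summit and 20.9% 100 bp to the right, then 13.2% and 11.5% at 200 bp and 10.1% and 10.3% at 300 bp. In windows of 299 bp, 511 members (49.4%) held at least 1 match, against 26.5% of flank windows, 189 (18.3%) held at least 2, against 5.08%, and 44 (4.26%) held at least 3, against 0.774%. Overlapping copies on both strands count as 2. The median distance between a match and the summit within 50 bp was 22 bp for AGTGTA and 26.5 bp for AGTGCA. In strong distal peaks it was 24.5 and 28.5 bp. Only matches inside the window were counted, which itself limits the distance, so no centring is read from these medians. The base before AGTGCA was C in 47.1% of 104 matches with enough context, and T made up 49.0% of the bases 3 to 8 positions before it. For AGTGTA the shares were 35.1% and 47.9%. The AGTGCA shares were 44.2% and 49.6% in strong distal, 46.5% and 42.3% in unreplicated distal and 42.0% and 35.8% in weak promoter peaks. No flank rate stands beside these values. On members in introns the matches fell on both strands of the host gene, with 34 AGTGTA on the host's strand and 40 on the other, and 38 AGTGCA against 45.

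**Figure D3:**
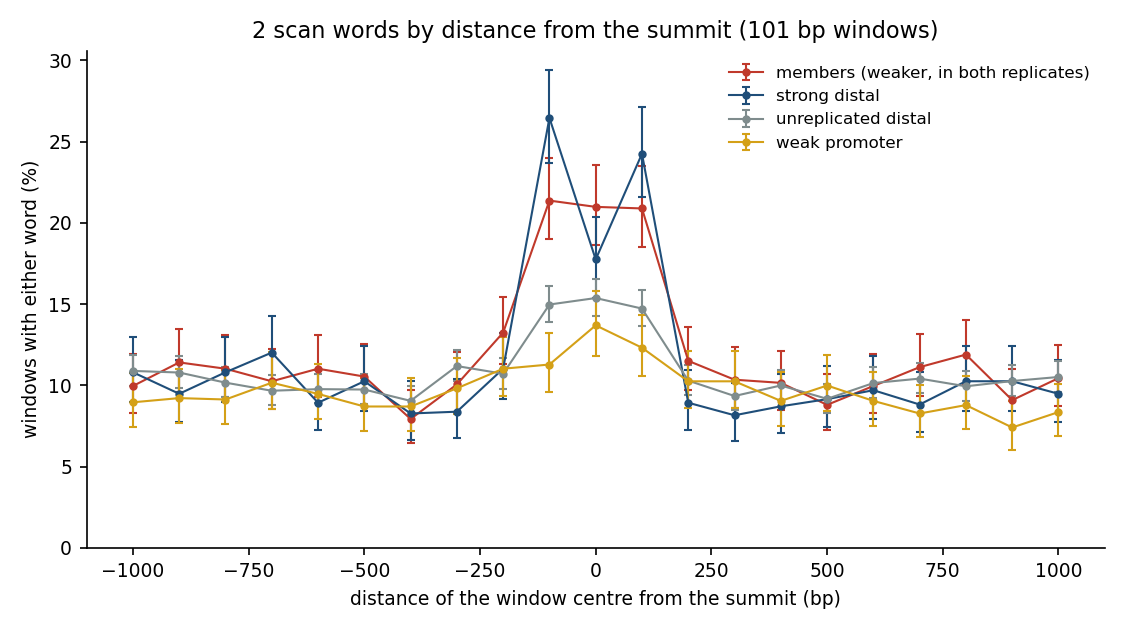
Share of windows of 50 bp to either side of their centre (%) that hold either of the 2 scan words, against distance of the window centre from the summit (bp), with 95% Wilson intervals, for members, strong distal, unreplicated distal and weak promoter peaks. Members hold a plateau of about 21% from 100 bp left to 100 bp right of the summit and fall to about 10% from 300 bp on; strong distal peaks reach 26.5% and 24.3% at 100 bp on either side and 17.8% at the summit.

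AGTGTA was also more frequent at the summits of the peak classes that the rule left out, and AGTGCA at those of the distal ones. Over the 907 strong distal peaks the scan called 300 words (14.4%) more frequent and 411 (19.8%) rarer at the summit. Of the 214 words more frequent in members 150 (70.1%) were also called there, which is 50% of the strong peaks' 300 words. Of the same 214 words 24 (11.2%) were among the 36 called in unreplicated distal peaks. Weak promoter peaks had 74 called words, of which 41 were shared, or 19.2% of the members' words. AGTGTA stood in 8.05% of strong distal summits and 3.86% of their flanks (exact test, adjusted p = 0.000196), and in 6.83% and 3.76% of the unreplicated ones (adjusted p = 3.0e-10). For weak promoter peaks the shares were 5.77% and 3.49% (exact test, adjusted p = 0.0367). AGTGCA was called in strong distal (10.5% and 6.17%) and unreplicated distal peaks (9.05% and 5.88%). It was not called in weak promoter peaks (8.35% and 6.03%, exact test, adjusted p = 0.108). Either word stood in 21.0% of member summits, against 17.8% of strong distal, 15.4% of unreplicated distal and 13.7% of weak promoter summits. The flank shares of these 4 classes were 9.67%, 9.70%, 9.46% and 9.35%. In 299 bp windows, where the whole plateau is covered, the shares with at least 1 match were 49.4% in members, 52.3% in strong distal, 38.2% in unreplicated distal and 32.5% in weak promoter peaks. The words were not particular to members of good rank: either word stood in 21.9% of members up to rank 4000 and 20% of those beyond rank 7000. Members with a word and the 817 without had similar median pooled ranks, 5069 and 5254, similar GC, 37.1% ± 7.27 and 36.1% ± 8.74 (SD), and E-boxes in 46.5% and 37.1% of windows. The E-box shares are not independent of the words, because CA before either word makes the E-box CAAGTG. Nothing is read from that difference.

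Where the other motifs differed between peak classes, promoter peaks stood apart. The DREF site TATCGATA stood in 0.193% of member summits and 4.74% of weak promoter summits (odds ratio 0.0483, two-sided Fisher's exact test, adjusted p = 6.5e-12), and the M1BP site in 0.484% and 2.67% (odds ratio 0.192, adjusted p = 0.000195). DREF and M1BP are factors of the core promoters of widely expressed genes. TSS distance, which the rule used, divides members from weak promoter peaks, so motif contrasts between them describe that division. Nothing is read from them about members. In genome windows of the same width the DREF site stood in 0.275% and the M1BP site in 0.210%. CAGCTG stood in 2.71% of member summits and 7.49% of weak promoter summits (odds ratio 0.348, exact test, adjusted p = 3.0e-06), and the adenine run in 10.1% and 3.79% (odds ratio 2.82, adjusted p = 6.5e-08). In all, 19.4% of the 31 features tested against weak promoter peaks were called, and 8.57% of the 35 tested against each distal class. Of the 3 called against strong distal peaks, TSS distance over 10000 bp and a strong summit within 2000 bp are built from values the rule used, and nothing is read from those calls. GAGAG was the one motif called against a distal class, at 10.2% of members and 13.7% of unreplicated peaks (exact test, adjusted p = 0.0299), and it missed the threshold under all 8 alternatives (adjusted p = 0.051 to 0.91).

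Introns held most members. They lay in an intron of a protein-coding gene in 703 cases (68.0%), against 69.6% of strong distal peaks (odds ratio 0.929, exact test, adjusted p = 0.85), and in a first intron of at least 1 transcript in 44.8%, against 47.4%. Members were more often far from promoters, with 24.0% over 10000 bp from the nearest protein-coding TSS, against 18.0% of strong distal peaks. This is a description: TSS distance is part of the rule, and the call on it in the family above (adjusted p = 0.0144 by exact test) supports nothing. Another strong summit lay within 2000 bp of 17.2% of members and of 26.2% of strong distal peaks, also a description, since the rank limit that defines a strong summit separates the classes. Among unreplicated distal peaks, which lie on the same side of that limit, the share was 16.0% (odds ratio 1.09, exact test, adjusted p = 0.69). With summits matched within 200 bp the members' share was called higher (odds ratio 1.36, exact test, adjusted p = 0.0019). The smallest gap between pooled summits was 199 bp, so a match within 200 bp can take in the replicate summit of a strong neighbour. Nothing is read from that call. The share was also called higher with replicate 1 alone required (odds ratio 1.49, exact test, adjusted p = 2.3e-05). With replicate 2 alone required or ranks limited to 9000 or 5000 the odds ratio lay below 1 and was not called. The most remote member, likewise named after its value was seen and in an intron of hth, a homeobox gene, was 86597 bp from the nearest protein-coding TSS and had pooled rank 5315. In 53 members a TSS of a noncoding gene lay within 1000 bp; 45 of these had an ncRNA, 6 a tRNA, 3 a snoRNA and 1 an snRNA, and a member can count under more than 1.

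The arms held 6.76 to 7.74 members per Mb on the autosomal arms 2L, 2R, 3L and 3R and 9.75 per Mb on X (95% Poisson interval 8.53 to 11.1). Chromosome 4 had 0, where 3 would be 2.25 per Mb. X held 22.1% of members, against 14.98% of unreplicated distal peaks (odds ratio 1.62, exact test, adjusted p = 1.3e-06) and 23.5% of strong distal peaks (adjusted p = 0.90). Up to rank 5000 in both classes the X share was 22.5% of members and 17.1% of unreplicated peaks, a difference that was not called (odds ratio 1.40, exact test, adjusted p = 0.71). Under the 7 other alternatives run the higher X share of members was called, with odds ratios of 1.25 to 1.60, and up to rank 9000 it was 22.7% against 16.4% (odds ratio 1.498, exact test, adjusted p = 0.0023). Embryos of both sexes were pooled, so the number of X copies per cell was mixed.

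Longer genes more often had a member. The rule itself favours this, since a summit over 1000 bp from every protein-coding TSS and outside exons needs room that short genes seldom have. The lengths and shares that follow are therefore description. Assigning each to the genes whose introns hold it, or else to the gene of the nearest TSS, gave 756 of 13945 protein-coding genes with a member (5.42%). The share grew with gene length, at 1.89% of genes under 5 kb, 14.1% of those of 10 to 20 kb, 28.9% of those of 20 to 50 kb and 48.2% of those over 100 kb. The 509 genes with a member in an intron had a median length of 27.1 kb, against 2.17 kb over all protein-coding genes. Of these genes 361 held 1 member and 50 held 3 or more. Nearest TSS and host differed in 165 of the 703 intronic members.

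The genes Drak, heca, kirre and tara each held 6 members in their introns. Drak encodes a kinase related to death-associated protein kinase, heca is headcase, kirre encodes an immunoglobulin protein of myoblast fusion, and tara is taranis. The 6 members of Drak lay 6.51 to 55.8 kb from the gene's start and had pooled ranks of 3151 to 6516, and its single strong distal peak lay at 1.81 kb. In kirre, 5 of the 6 lay in a stretch of 238 to 268 kb from the start of a gene of 394 kb, between strong distal peaks at 47.1 and 285 kb. In tara, the shortest of the 4 at 34.7 kb, the 6 members ranked 5684 to 13121 in replicate 1 and 2842 to 13332 in replicate 2, with the pooled list's best, rank 3314, at 13121 and 5599. CG1677, CG8312, Ten-a, a teneurin adhesion gene, and px, plexus, held 5 each. The px members ranked 3154 to 4536 in the pooled list, and no strong distal peak lay in an intron of px. CG12535, CG32264, Dg, Mnt, Shrm, atos, ftz-f1, hth, jing, sdt and shn held 4. Per length, Dg, the dystroglycan gene, was densest of these 19 genes, with 4 members in 17.4 kb, or 23 per 100 kb, and also held no strong distal peak in an intron. Mnt encodes a bHLH zipper repressor, ftz-f1 a nuclear receptor and sdt a polarity scaffold, in which 4 members likewise stood without a strong distal peak.

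**Figure D4:**
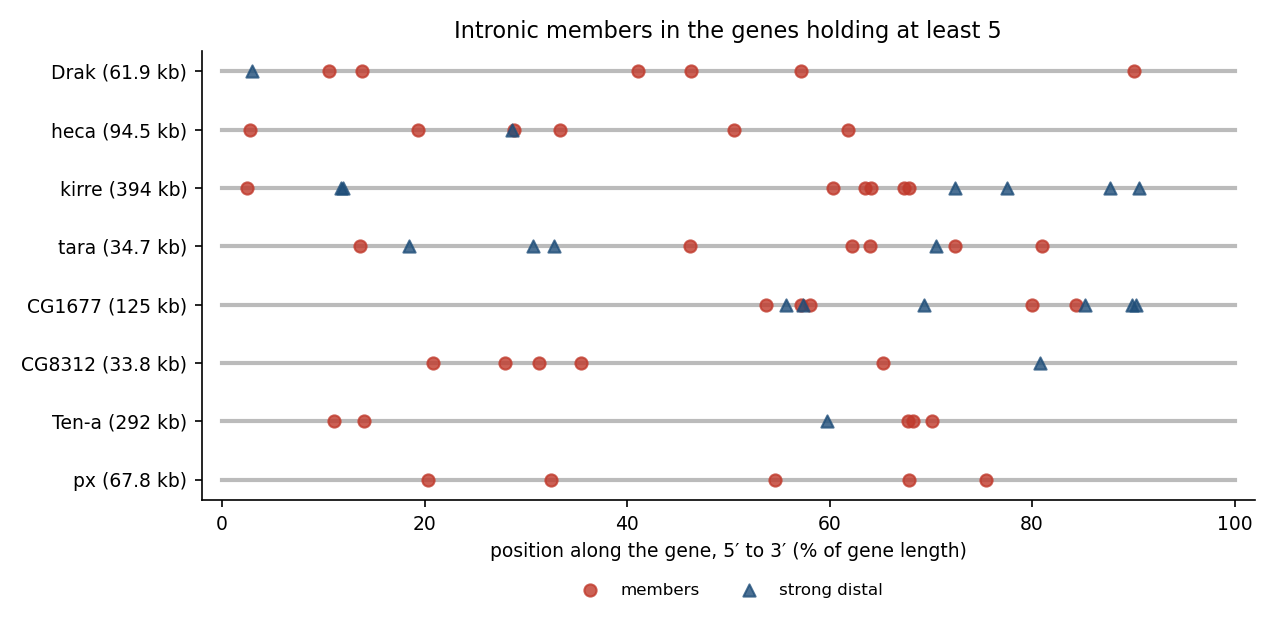
Positions of intronic members (red circles) and intronic strong distal peaks (blue triangles) along the 8 genes that hold at least 5 members, as a share of gene length (%) from 5′ to 3′; gene lengths in kb stand beside the names. Members spread along Drak, heca and px, 5 of the 6 in kirre stand close together, and px shows no strong distal peak.

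Members within 5000 bp of each other formed 103 groups of 2 or more, of which 87 were pairs, 11 had 3 members and 5 had 4, while 807 members stood alone. The groups of 4 lay in tara (3R, 6.52 kb across), atos (9.66 kb), Dg (6.28 kb), CG8312 (4.96 kb) and beside Ids (4.07 kb). Of the groups of 3, named after their values were seen as Ids was, examples lay in Dad, an inhibitor of Dpp signalling, in drl, a Wnt receptor of muscles and axons, and between Wnt4 and wg, which encode Wnt ligands, across 3.09 kb.

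Among 25 gene lists, tendon and muscle attachment had the highest share of genes with a member, 11 of 15 (73.3%), against 5.42% of all protein-coding genes and 22.3% of all genes with the same lengths, computed by length class. The lists were tested in no way, because they were drawn up with earlier results of these data known. Length classes match gene length but not the room between genes, on which assignment by nearest TSS depends. In this list kon had 2 members upstream of its TSS: that of pooled rank 3119 ranked 4747 and 2508 in replicates 1 and 2, and that of rank 3624 ranked 3429 and 2199. Tsp, the thrombospondin that tendon cells secrete, had 1 intronic member of rank 3475, which ranked 5905 and 2158. The spectraplakin gene shot, whose product links actin to microtubules in tendon cells, had 3, of pooled ranks 3774, 6502 and 9233, with ranks of 11258 to 12045 in replicate 1. betaTub60D, a tubulin gene of muscle, had 1 of rank 3817, which ranked 3494 and 11536. It was assigned by nearest TSS and lay outside this gene of 7.22 kb, 13697 bp downstream of the TSS. The remaining genes with a member were drl, vn, tx, if, mew, mys and wb. They include the ligand Vein (vn), both partners of the muscle and tendon integrins (if and mew for the alpha chains, mys for the beta chain) and a laminin (wb); beyond the 4 best they are named after their values were seen. The integrin members were weak, of pooled ranks 5051 and 5541 in if, 7169 in mew and 9216 and 10050 in mys.

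The 2 tx members stood in the gene's own intron, 1266 and 2718 bp downstream of its TSS, at 26442803 and 26444255 on 3R. The nearer one had pooled rank 4825 and signal 42.5, with ranks 7736 and 10117 in replicates 1 and 2, and the other had pooled rank 5665 and signal 37.9, with ranks 6014 and 11927. Both were stronger in replicate 1. Between them lay a peak of pooled rank 3772 that ranked 2450 in replicate 1 and had no match in replicate 2, so it was no member. The nearest peak of the strong class, rank 1312, lay 6065 bp from the nearer member, outside the gene, with ranks 1610 and 991.

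Signalling lists followed. Of the Dpp pathway 8 of 17 genes had a member (47.1%, against 17.4% of all genes in the same length classes): the ligand gene dpp had 1 of rank 3176, the inhibitor Dad 3 with the best at 3177, the type I receptor tkv 3 with the best at 3608 and the type II receptor put 1 of rank 3623. The dpp member ranked 2957 and 4591 in the replicates, and the put member ranked 10284 and 3483. Of the Wnt and Hedgehog list 9 of 22 had a member (40.9%, against 16.5%), led by fz2 at 3128, wg at 3566 and Wnt4 at 3649, and fz at 4811. Of the EGFR and Ras list 6 of 20 had a member (30.0%, against 16.5%): Raf at 3362, Egfr at 3550, S, the Star gene, at 3699 and vn at 4724. Of the ecdysone response list 7 of 15 had a member (46.7%, against 34.5%), led by the nuclear receptor genes Hr4 at 3167, ftz-f1 at 3382 and Hr3 at 3999, and by the coactivator gene tai at 5467. Of the Notch core 3 of 15 (20%, against 19.8%) had a member: mam at 4315, N at 5258 and Ser at 7072. The entry Dl of that list was not matched to a gene and is not counted.

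Patterning and adhesion genes also carried members. Of segmentation and Hox genes 10 of 27 had a member (37.0%, against 11.4%), led by Abd-B at 3212, odd at 3359, wg at 3566 and hry, or hairy, at 5751. Only 3 of these 10 had a member in an intron. The rest were assigned by nearest TSS alone, for which the length classes are no match. Of axon guidance and adhesion genes 9 of 20 had a member (45.0%, against 34.3%): fra, the netrin receptor, at 3166, Ten-a at 3398, Fas2 at 3853 and Sema1a at 4118 were the strongest. Of integrins and their adhesion complex 5 of 15 had a member (33.3%, against 10.4%), of which if, mew and mys are also in the tendon list, and stck, at 4068, had the member of best rank. Of wing and vein patterning genes 5 of 19 had a member (26.3%, against 19.7%): px at 3154, knrl at 4882, bi at 5334 and vvl at 6247. The vvl member, assigned by nearest TSS, lay 33972 bp downstream of the TSS of this gene of 4.78 kb, and it also counts in the trachea list. Proneural bHLH genes and partners had members at 2 of 20 (10%, against 5.12%), the myogenic bHLH gene nau at 3573 and the inhibitor gene emc at 4574.

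The remaining lists, several of them of other cell types that whole embryos contain, lay on both sides of the share of all genes in their length classes. Above it were epidermis and cuticle with 3 of 14 (21.4%, against 14.4%), of which dy ranked 3295, ovo 3488 and CrebA 5434, and trachea with 3 of 14 (21.4%, against 16.5%), of which pyd ranked 4776, vvl 6247 and serp 7294. Also above it were somatic muscle identity and fusion with 5 of 24 (20.8%, against 18.96%), led by kirre at 3204, nau at 3573, Vrp1 at 5538 and H15 at 5688, and insulin and TOR with 3 of 16 (18.75%, against 8.40%), with Thor at 3491, foxo at 7898 and slif at 9249. JAK STAT had 2 of 13 (15.4%, against 8.88%), Ptp61F at 4879 and Socs16D at 6840, and hemocyte genes had 2 of 14 (14.3%, against 10.3%), ush at 4116 and Pvr at 6807. The Enhancer of split and Bearded complexes had 1 of 14 (7.14%, against 1.89%), E(spl)m3-HLH at 4725. Below it were neuroblast and neuron genes with 2 of 16 (12.5%, against 16.6%), brat at 3254 and nerfin-1 at 4855, and sarcomere and muscle scaffold genes with 2 of 22 (9.09%, against 15.97%), tmod at 5254 and wupA at 7823. Basement membrane genes had 1 of 12 (8.33%, against 18.9%), wb at 11319, germline genes 1 of 13 (7.69%, against 9.24%), ovo, and fat body and gut genes 1 of 13 (7.69%, against 8.24%), grn at 7826. Chordotonal and sense organ genes had 0 of 14, against 9.76%, and ribosomal protein genes 0 of 25, against 1.89%.

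**Figure D5:**
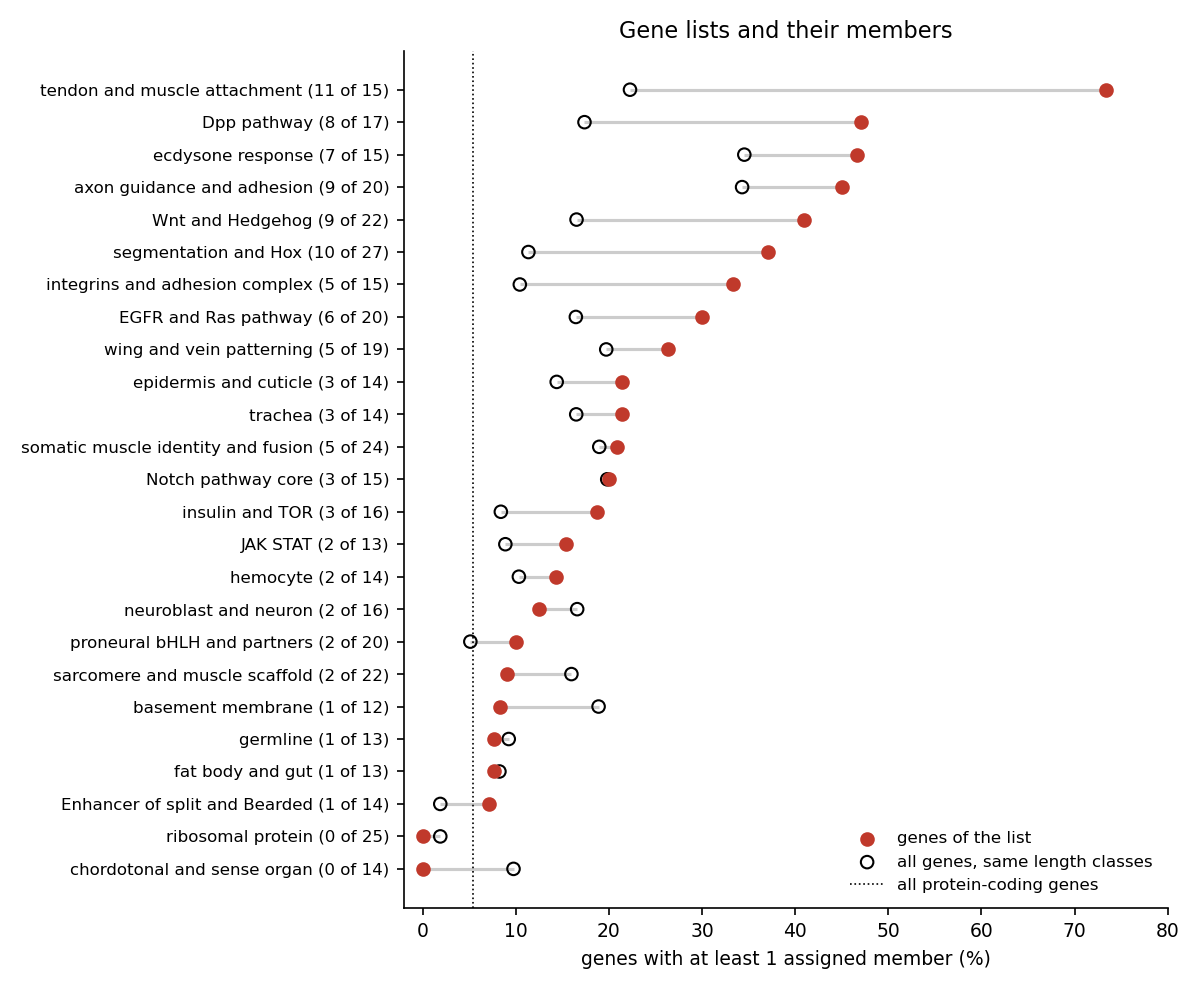
Share of each list's genes with at least 1 assigned member (%, red points), beside the share of all protein-coding genes in the same length classes (open circles) and over all protein-coding genes (dotted line, 5.42%); the counts stand after each list's name. The tendon and muscle attachment list has the highest share, 73.3%, and the chordotonal and ribosomal protein lists have none.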

How the data were processed

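Chromatin immunoprecipitated with an antibody to GFP from whole embryos with GFP-tagged tx was sequenced in 2 biological replicates, per the labels. The authors deposited relaxed peak lists of 30000 peaks on dm6 for each replicate and for the pooled replicates, called against 1 control, and a set of 3102 thresholded by irreproducible discovery rate, per the text that accompanies the deposited files. The sources used here name neither an aligner nor a peak caller. Each deposited peak carries the authors' signal value, whose scale is not stated, and a −log10 q-value, deposited in the narrowPeak format. Read counts and depth are unknown, so intervals are Wilson 95% intervals over peaks and Poisson intervals over arms, covering counting error only. Lists on dm3 were not used.

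Genes and exons, those of transposable elements included, came from Ensembl release 115 (BDGP6.54), and sequence from the RefSeq Release 6 genome. The members and gene lists were chosen with earlier results of these data known. Summit windows of 101 bp were compared with windows centred 500 bp to the left and right by a two-sided exact stratified test per motif. Peak classes were compared by two-sided Fisher's exact test, with odds ratios after adding 0.5 to each cell. Neighbouring peaks share sequence and chromatin, and the p-values treat peaks as independent; they describe these lists, not variation between animals. P-values were Benjamini-Hochberg adjusted over 11 E-box tests, 16 other motifs, 2080 words, or 35, 35 and 31 features, at 0.05, with scipy 1.17.1, numpy 2.4.6, pandas 2.3.3 and statsmodels 0.14.6 under Python 3.11.15; both tests were tested on simulated data. Named were the 10 members of best pooled rank, those at each threshold, those near tx, the strongest with a called word, the genes with most intronic members and up to 4 genes per list; others are said to be chosen after their values were seen. The 447 entries of the 25 lists gave 429 list genes, with 10 entries matched by synonym and 11 unmatched. Unmatched entries, which the shares leave out, include Dl (Notch core and wing lists), Tor (insulin and TOR) and nos (germline). Alternatives changed the windows, flanks, distances, ranks and replicates required.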

Additional observations from a re-analysis of the deposited data

How the results depend on the processing

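Of 218 values recomputed under alternatives, 167 kept their direction and their side of the threshold or stayed within 1.5 times of the count. Of the 91 values on results planned as main ones, 57 did so, 16 reversed direction, 15 counts moved further and 3 gained a call. The other 127, of which 110 did so, belong to words and comparisons kept because they had been called. Alternatives for exonic flanks, a rank limit of 5000, transposable element exons and a distance of over 500 bp from strong summits were chosen after seeing the data. The number of members was 646 with summits within 50 bp and 650 with the top 10000 of each replicate, and 1808 to 3381 with 1 replicate required. The E-box ratio to flanks was 0.912 with 100 bp either side and 1.04 in GC-matched members. The other motifs called numbered 3 with 100 bp either side, 1 over 2000 bp from a strong summit, 4 at ranks up to 9000, 3 over 500 bp from a strong summit, and 1 to 3 with 1 replicate required. The words more frequent at summits numbered 117 and the rarer ones 100 with flanks 1000 bp away, and 5 and 0 in GC-matched members; with 1 replicate required they numbered 163 to 232 and 92 to 215. The odds ratio for any E-box against strong distal peaks was 0.979 at a TSS distance of 500 bp and 0.979 at 2000 bp, and 0.980 with summits within 50 bp. Against weak promoter peaks it was 0.987 at 500 bp, 0.989 at 2000 bp, 0.944 within 50 bp, 0.964 within 200 bp and 0.958 to 1.01 with 1 replicate required. Against unreplicated peaks it was 1.02 at ranks up to 9000 and 1.02 up to 5000. The odds ratio for a strong summit within 2000 bp against unreplicated peaks was 1.36 within 200 bp, 0.841 up to rank 9000, 0.875 up to 5000 and 0.813 to 1.49 with 1 replicate required. For the intronic share against strong distal peaks it was 1.00 at a TSS distance of 2000 bp and 0.924 to 1.01 with 1 replicate required. The cause of these shifts was not tested. The alternatives of summit distance, TSS distance, distance from strong summits, rank, GC match and replicates required hold other numbers of peaks by construction. No paired analysis was possible because there was only 1 group.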
